A study of Mus musculus with 6 samples.

Results

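Transcripts of the mitochondrial ribosomal proteins were examined in splenic CD8+ T cells, labelled as naive, of Nrdp1-/- and wild-type mice. The members were the genes whose symbol on the array starts with Mrpl or Mrps followed by a digit, with pseudogenes left out. They numbered 76 of the 18193 genes that had a probe set of their own, 47 named Mrpl and 29 named Mrps. Each gene was represented by the brightest of its probe sets, and 156 probe sets belonged to the members. Mrpl30 and Mrpl53 had only probe sets shared with another gene and were not among them. All 76 members lay at or above the median signal of the array on all 6 arrays, so all of them entered the tests, with 10838 genes tested in all.

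There was 1 array for each of 6 groups: Nrdp1-/- cells and wild-type cells (Nrdp1+/+), each untreated or stimulated for 4 h or 8 h. The stimulus was anti-CD3 fixed to the dish (5 µg/ml) with anti-CD28 in solution (1 µg/ml). Both antibodies together engage the T cell receptor and its costimulatory receptor. The gene for Nrdp1, a ubiquitin ligase, is Rnf41. All mice were of strain C57/BL6, labelled as such. The labels used here do not say how the allele was made, the age of the animals, how many mice gave each RNA, or whether arrays share an animal, so p-values measure only the spread between these arrays, which may be technical. The treatment tag of the stimulated samples names anti-CD28 alone, while the treatment protocol names both antibodies.

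The mitochondrial ribosome translates the few proteins that mitochondrial DNA encodes, all of them subunits of the respiratory chain and the ATP synthase. Its RNA comes from mitochondrial DNA, but every one of its proteins is encoded in the nucleus, made in the cytosol and imported. A small subunit decodes the messenger RNA, and a large subunit joins the amino acids and feeds the new chain towards the inner membrane. T cells that leave quiescence enlarge their mitochondria and need this machinery to assemble respiratory complexes. Names do not map fully on subunits: Mrps18a and Mrps30 sit in the large subunit, and Mrps36 is now known as a part of the oxoglutarate dehydrogenase complex. By these placements 49 members belonged to the large subunit and 26 to the small one.

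Values are MAS5 signals, a linear brightness per probe set that is comparable between arrays for one probe set but not between genes. Changes are differences of log2(signal + 4.45), given with their standard error (SE) from limma over the 6 arrays, where each time is represented by 1 array of either genotype. The markers Cd3e, Cd3d, Cd3g, Cd8a and Cd8b1 were above the array median on all 6 arrays, and Cd4 was below it on all of them (signal 6.06 to 15.7). RNA extraction is labelled as from colon. Of 10 markers of colon epithelium at most 4, and of 5 markers of smooth muscle at most 2, reached the median on any array. For Rnf41, Nrdp1-/- minus wild type was -0.46 untreated, -0.21 at 4 h and -0.42 at 8 h by its brightest probe set and -1.66, -1.18 and -0.91 by a dimmer one. Another dim one stood at -0.15, 0.46 and -0.32, the dimmest at -0.11, 0.52 and 0.34, and the sources used here do not tell which of its 4 probe sets the deletion covers. In this bulk RNA, fewer cells of a type and less RNA per cell cannot be told apart.

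The promoters of 67 members were found by gene ID in a table of RefSeq promoters on mouse build GRCm38.p6, each running from 250 bases before the transcription start to 50 after it. Promoters of 4 members that the results below turn on are shown. They were picked because they hold motifs bound by factors known for this gene family. The capitals mark CACGTG, the E-box that Myc and Max bind, and CCGGAAG, the core of ETS factors such as GABPA, on either strand. They also mark an element of nuclear respiratory factor NRF1, on either strand. This element was searched as marked in Mrpl12 below, with any base allowed just before its T. No marked sites overlap. Mrps2, Mrps6, Mrps10 and Mrps25 were also among the members with the largest rise, and their promoters hold none of these motifs. No promoter was matched for Mrps28, the member that changed most.
Mrpl17 (chr7:105811038-105811337, minus strand): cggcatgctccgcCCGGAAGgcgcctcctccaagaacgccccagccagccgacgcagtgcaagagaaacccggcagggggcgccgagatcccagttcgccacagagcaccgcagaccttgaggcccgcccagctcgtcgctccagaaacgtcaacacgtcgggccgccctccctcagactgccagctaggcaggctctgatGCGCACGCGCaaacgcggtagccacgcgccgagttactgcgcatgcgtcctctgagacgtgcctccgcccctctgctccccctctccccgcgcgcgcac
Mrpl12 (chr11:120484387-120484686, plus strand): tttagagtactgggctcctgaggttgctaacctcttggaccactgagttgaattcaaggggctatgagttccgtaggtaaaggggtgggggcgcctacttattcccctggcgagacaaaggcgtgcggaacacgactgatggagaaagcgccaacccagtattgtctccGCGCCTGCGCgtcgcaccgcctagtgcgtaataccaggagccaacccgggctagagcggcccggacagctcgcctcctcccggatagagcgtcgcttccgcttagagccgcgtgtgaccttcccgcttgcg
Mrps22 (chr9:98601630-98601929, minus strand): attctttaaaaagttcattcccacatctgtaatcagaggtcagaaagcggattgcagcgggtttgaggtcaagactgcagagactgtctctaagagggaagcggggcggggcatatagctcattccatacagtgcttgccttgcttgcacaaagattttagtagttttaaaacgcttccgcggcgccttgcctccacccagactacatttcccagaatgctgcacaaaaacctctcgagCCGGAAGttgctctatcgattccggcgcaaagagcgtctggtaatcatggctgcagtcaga
Mrpl36 (chr13:73330759-73331058, plus strand): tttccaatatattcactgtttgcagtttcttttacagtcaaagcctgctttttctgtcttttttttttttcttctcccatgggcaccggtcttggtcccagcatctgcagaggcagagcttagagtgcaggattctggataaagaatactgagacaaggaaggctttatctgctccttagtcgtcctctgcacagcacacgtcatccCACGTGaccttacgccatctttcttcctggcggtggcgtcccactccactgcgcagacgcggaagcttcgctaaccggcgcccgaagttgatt
The NRF1 element begins 49 bases before the start of Mrpl17 and 81 bases before that of Mrpl12. The ETS core begins 11 bases before the start of Mrps22 and 237 bases before that of Mrpl17. The E-box of Mrpl36 begins 43 bases before its start.

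Over the 73 promoters of the 67 members, CCGGAAG stood in 34.2%, against 18.4% of the 11177 promoters of other genes tested and 8.86% of all 32851 promoters. The NRF1 element stood in 16.4% of the members' promoters, against 10.5% and 4.60%. The E-box stood in 9.59%, against 10.1% and 7.15%. The ETS core and the NRF1 element thus occurred in a larger share of the members' promoters than of those of other genes tested. The E-box share was similar by promoter, where Mrpl2 alone counts with 3 overlapping promoters. Counted by gene, the E-box stood in 7.46% of the matched members, against 12% of other genes tested. Among the 29 matched members that rose at 4 h or 8 h, 9 genes (31%) held CCGGAAG and 3 (10.3%) the NRF1 element. CACGTG stood in 3 of the 29 (10.3%), Mrpl2, Mrpl20 and Mrpl36. Among the 38 matched members that passed at neither time, 16 genes (42.1%) held CCGGAAG, 9 (23.7%) the NRF1 element and 2 (5.26%) CACGTG. Of other genes tested 21.4% held CCGGAAG, 12.3% the NRF1 element and 12% CACGTG. For comparison, CCAAT, the NF-Y box, stood in 39.7% of the members' promoters, against 37.6% of those of other genes tested. GGGCGG, the SP factor box, stood in 53.4% against 62.0%, and TATAAA in 6.85% against 7.11%. These are exact letter matches on both strands and carry no test.

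Part of the family rose after stimulation. No unstimulated array is labelled as 4 h or 8 h, so the stimulus and time in culture cannot be told apart. At 4 h 18 of the 76 members (23.7%) rose and 0 fell, against 8.01% of all genes tested that rose and 5.51% that fell (limma, adjusted p under 0.05). At 8 h 34 members (44.7%) rose and 0 fell, against backgrounds of 9.88% and 9.26%. All 18 members that rose at 4 h had risen at 8 h too, 16 passed at 8 h alone and 42 passed at neither time. The median change over the members was 0.22 at 4 h and 0.34 at 8 h on the log2 scale, against -0.05 and -0.07 over all genes tested. Of the members, 69 had a positive change at 4 h and 67 at 8 h, while 43.9% and 42.6% of all genes did. No falling member came near the threshold: the lowest adjusted p among them was 0.407 at 4 h and 0.431 at 8 h, and 0 of them had an unadjusted p under 0.05. The 4 h and 8 h comparisons share the untreated arrays.

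These counts depended on how the spread was estimated and on single arrays. Without the intensity trend in the variance, 0 members passed at 4 h and 1, Mrps28, at 8 h, when 83 and 103 of all genes still rose. Leaving out the untreated Nrdp1-/- array left 5 risen members at 4 h and 13 at 8 h, leaving out the untreated wild-type array 9 and 20, leaving out the 8 h Nrdp1-/- array 16 at 8 h, and leaving out the 4 h wild-type array 11 at 4 h. Centring arrays on their medians gave 10 and 21 risen members, and averaging all probe sets of a gene 8 and 15. Counted without any variance model, both 4 h arrays lay above both untreated arrays for 49 members (64.5%), against 22.5% of all genes, and both 8 h arrays for 56 members (73.7%), against 24.0%. A set of 7204 other genes lay within the members' range of mean signal (285 to 7646) and at or above the median of every array. Of these, 9.93% rose at 4 h and 11.8% at 8 h. That range and the non-overlap count were chosen after the data were seen.

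**Figure D1:**
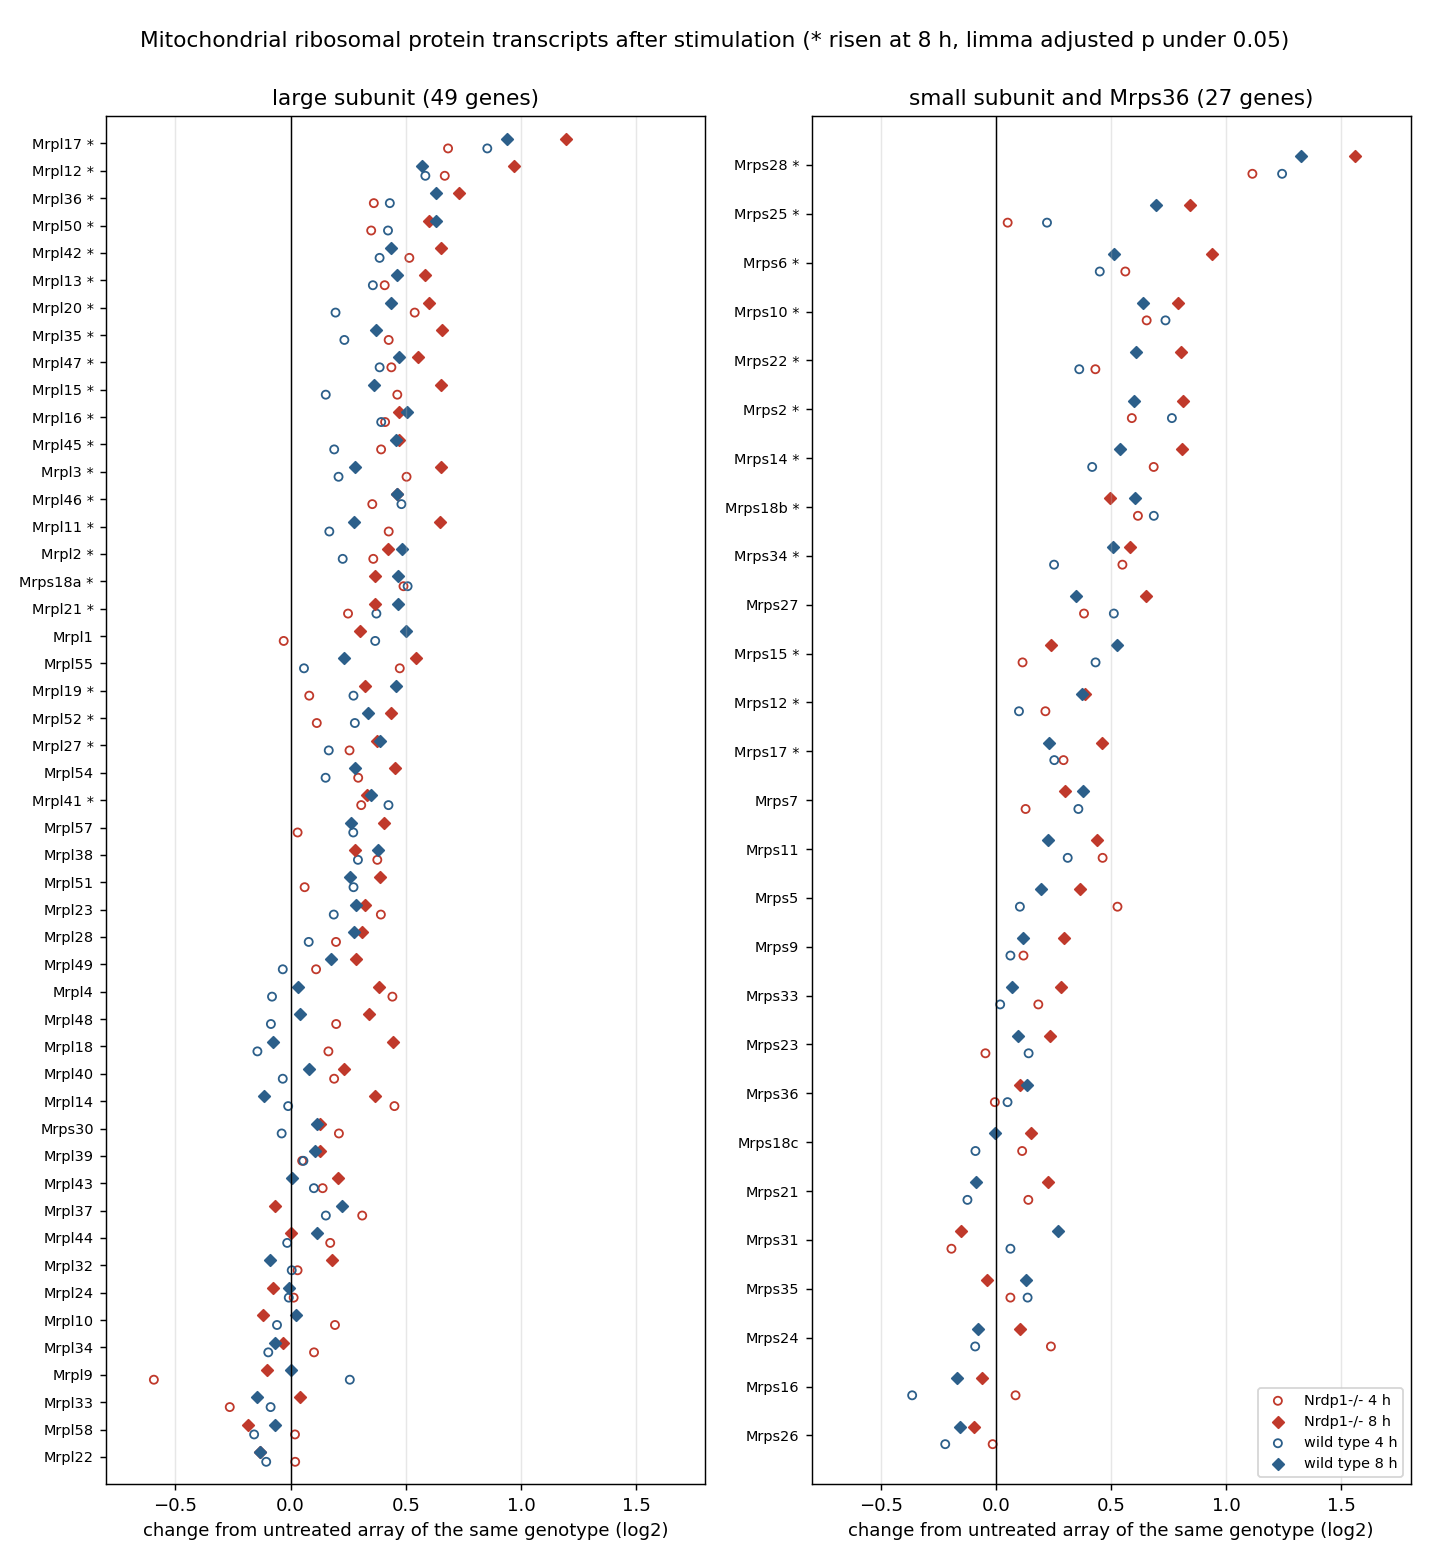
Change of each member from the untreated array of its own genotype (log2, horizontal axis), with Nrdp1-/- in red and wild type in blue, open circles for 4 h and filled diamonds for 8 h, and 1 array behind each point and its untreated counterpart. Most points lie right of 0, Mrps28 and Mrpl17 reach farthest, and an asterisk marks the 34 members that rose at 8 h.

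Mrps28, a small-subunit protein with a bacterial counterpart, changed most. Its signal was 543 in untreated Nrdp1-/- cells, 1179 at 4 h and 1610 at 8 h, and 524, 1246 and 1318 in wild-type cells. All 4 stimulated arrays lay above both untreated arrays, with no overlap. Its log2 change was 1.18 ± 0.13 at 4 h (adjusted p = 0.000164) and 1.44 ± 0.13 at 8 h (adjusted p = 3.3e-05). It was the one member that changed by at least 2-fold at 4 h, and Mrpl17 joined it at 8 h. The array has 1 probe set for Mrps28.

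Mrpl17, a large-subunit protein that also has a bacterial counterpart, had signals of 966, 1554 and 2218 in Nrdp1-/- cells at 0, 4 and 8 h, and of 798, 1446 and 1536 in wild-type cells. The stimulated arrays were again all above the untreated ones, and the highest value was that of Nrdp1-/- cells at 8 h. It rose by 0.77 ± 0.13 at 4 h and by 1.07 ± 0.13 at 8 h (adjusted p = 0.0027 and 0.000257). Mrpl12 forms the flexible stalk that recruits translation factors to the large subunit, and it also binds the mitochondrial RNA polymerase. Its signals were 2126, 3384 and 4175 in Nrdp1-/- cells, and 2159, 3242 and 3214 in wild-type cells. It rose by 0.63 ± 0.12 at 4 h and 0.77 ± 0.12 at 8 h (adjusted p = 0.0052 and 0.0013). Stimulated and untreated arrays did not overlap, while the 4 h and 8 h arrays did, since the 8 h wild-type array lay below both 4 h arrays.

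The other proteins of the stalk and its base did not all pass. Mrpl11, at the base, rose at 8 h (0.46 ± 0.13, adjusted p = 0.0274) and stood at 0.30 ± 0.13 at 4 h (adjusted p = 0.156). Mrpl10, which anchors the stalk, had signals of 1188, 1358 and 1092 in Nrdp1-/- cells and 1265, 1214 and 1287 in wild-type cells, with stimulated and untreated arrays intermingled. Its changes were 0.07 ± 0.13 and -0.05 ± 0.13 (adjusted p = 0.796 and 0.834). Whether Mrpl12 and Mrpl10 differ was not tested.

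Of the 26 small-subunit members 8 (30.8%) rose at 4 h and 12 (46.2%) at 8 h, with medians of 0.26 and 0.34. The shares over all genes tested were 8.01% and 9.88%. Mrps2, with a bacterial counterpart, had signals of 809, 1219 and 1421 in Nrdp1-/- cells, and 729, 1241 and 1106 in wild-type cells. It rose by 0.68 ± 0.13 and 0.70 ± 0.13 (adjusted p = 0.00586 and 0.00388), so that the 4 h value was close to the 8 h value. Mrps10 had signals of 839, 1323 and 1456 in Nrdp1-/- cells, and 773, 1290 and 1205 in wild-type cells, and rose by 0.70 ± 0.12 and 0.71 ± 0.12 (adjusted p = 0.00324 and 0.00231). A dimmer probe set of Mrps10 changed by 0.09 and -0.03. Mrps6 had signals of 980, 1449 and 1882 in Nrdp1-/- cells, and 1058, 1447 and 1510 in wild-type cells. It rose by 0.51 ± 0.13 and 0.72 ± 0.13 (adjusted p = 0.0254 and 0.00321), and its second probe set gave 0.59 and 0.76.

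Mrps22, a mitochondria-specific protein whose human gene is mutated in a mitochondrial disease, had signals of 879, 1187 and 1539 in Nrdp1-/- cells, and 884, 1137 and 1348 in wild-type cells. The 3 times were in the same order in both genotypes. It rose by 0.40 ± 0.12 at 4 h and 0.71 ± 0.12 at 8 h (adjusted p = 0.0490 and 0.00226). Mrps14, which lies in the head of the subunit, had signals of 3644, 5860 and 6384 in Nrdp1-/- cells, and 3734, 4989 and 5433 in wild-type cells. It rose by 0.55 ± 0.11 and 0.67 ± 0.11 (adjusted p = 0.00584 and 0.00153). Its pair of dimmer probe sets, also above the array median throughout, changed less, by 0.13 and 0.00 at 4 h and by 0.29 and 0.05 at 8 h. Mrps12, of the decoding centre, rose at 8 h (0.38 ± 0.11, adjusted p = 0.0315) and was at 0.16 ± 0.11 at 4 h (adjusted p = 0.390).

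Mrps25, a mitochondria-specific protein, followed another time course. Its signal was 363 untreated, 376 at 4 h and 656 at 8 h in Nrdp1-/- cells, and 356, 416 and 579 in wild-type cells. The 4 h arrays lay near the untreated ones and the 8 h arrays above all others. It changed by 0.14 ± 0.16 at 4 h (adjusted p = 0.635) and rose by 0.77 ± 0.16 at 8 h (adjusted p = 0.00655). Between 4 h and 8 h its difference was 0.63 ± 0.16, which did not pass over all genes (adjusted p = 0.228). The other probe sets of Mrps25 do not show the rise, at -0.21 for one above the array median and -0.29 for one below it at 8 h.

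**Figure D2:**
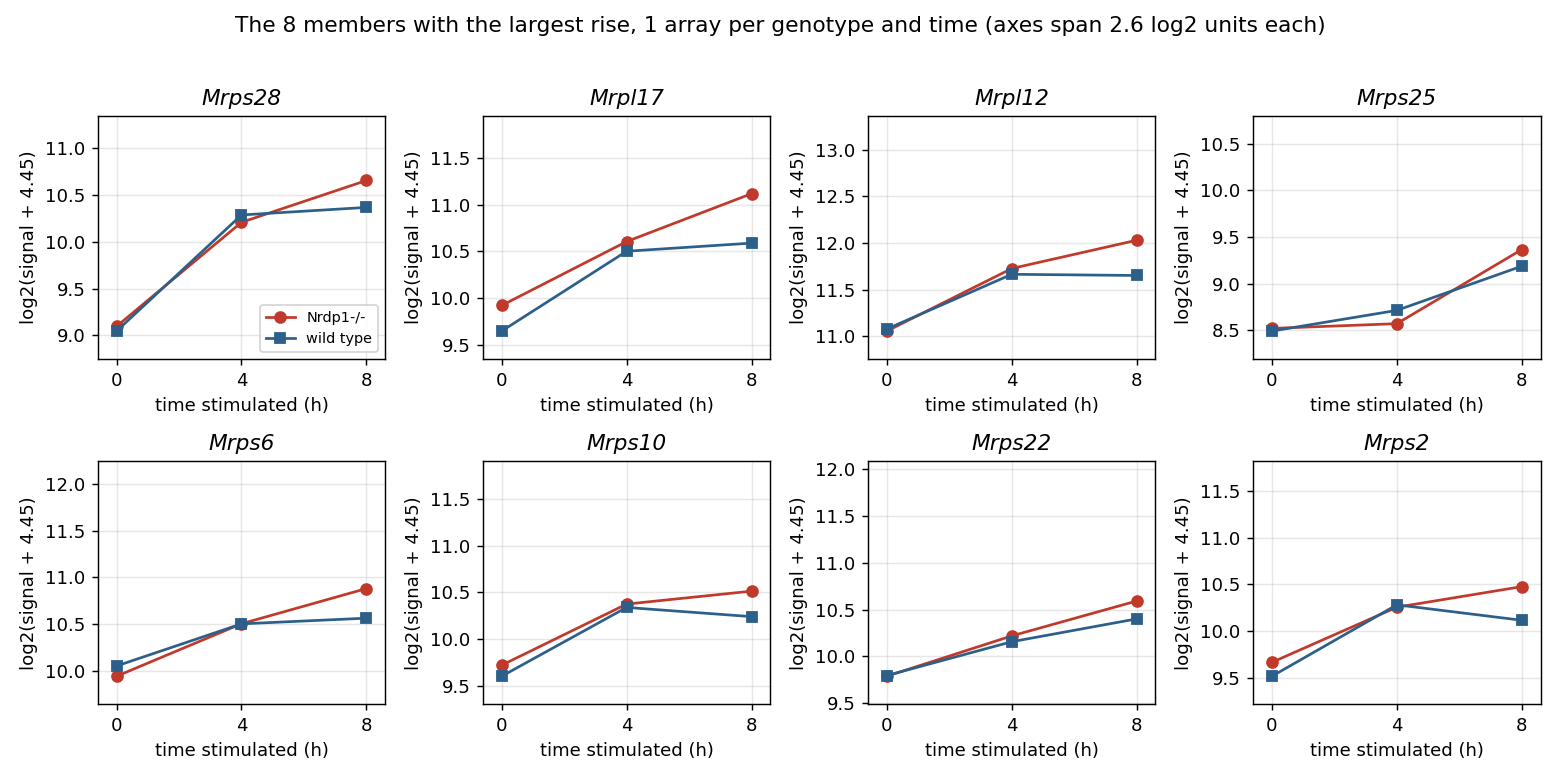
Level of the 8 members with the largest rise, as log2(signal + 4.45), against hours of stimulation, 1 array per point, with Nrdp1-/- in red circles and wild type in blue squares. For 7 of them most of the rise is present at 4 h or the lines climb through both steps, and for Mrps25 the larger step lies between 4 h and 8 h.

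The 3 paralogs of the S18 protein resemble one bacterial protein, with Mrps18a in the large subunit and Mrps18b and Mrps18c at different places in the small one. Mrps18b had signals of 1082, 1661 and 1529 in Nrdp1-/- cells, and 878, 1414 and 1336 in wild-type cells, and rose by 0.65 ± 0.11 at 4 h and 0.55 ± 0.11 at 8 h (adjusted p = 0.00329 and 0.00699). Mrps18a had signals of 1118, 1572 and 1441 in Nrdp1-/- cells, and 1155, 1645 and 1599 in wild-type cells, and rose by 0.50 ± 0.11 and 0.42 ± 0.11 (adjusted p = 0.0132 and 0.0242). Mrps18c had 2631, 2847 and 2922 in Nrdp1-/- cells, and 2941, 2764 and 2934 in wild-type cells. Its changes of 0.01 ± 0.10 and 0.07 ± 0.10 did not pass (adjusted p = 0.956 and 0.673). Mrps18a and Mrps18b stood highest at 4 h in both genotypes. The difference between the paralogs was not tested, and the array has 1 probe set for each.

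Of the 49 large-subunit members 10 (20.4%) rose at 4 h and 22 (44.9%) at 8 h, with medians of 0.22 and 0.34. The shares over all genes tested were 8.01% and 9.88%. Mrpl36, with a bacterial counterpart, had signals of 919, 1182 and 1530 in Nrdp1-/- cells, and 801, 1081 and 1242 in wild-type cells. It rose by 0.40 ± 0.12 and 0.68 ± 0.12 (adjusted p = 0.0487 and 0.00271). Mrpl47 had 1182, 1602 and 1734 in Nrdp1-/- cells, and 1010, 1321 and 1400 in wild-type cells, and rose by 0.41 ± 0.11 and 0.51 ± 0.11 (adjusted p = 0.0327 and 0.00956). Mrpl45, which tethers the ribosome to the inner membrane at the tunnel exit, rose at 8 h (0.47 ± 0.13, adjusted p = 0.0246) and was at 0.29 ± 0.13 at 4 h (adjusted p = 0.158). The small and large subunits thus had nearly equal medians at 8 h.

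Members that did not pass included proteins of the same subunits. Mrpl24 had signals of 8130, 8204 and 7715 in Nrdp1-/- cells, and 7299, 7258 and 7273 in wild-type cells, with changes of 0.00 ± 0.09 and -0.04 ± 0.09 (adjusted p = 0.990 and 0.805). Mrpl39, a mitochondria-specific protein, had 4056, 4199 and 4432 in Nrdp1-/- cells, and 4055, 4214 and 4369 in wild-type cells, with changes of 0.05 ± 0.10 and 0.12 ± 0.10 (adjusted p = 0.783 and 0.440). Stimulated and untreated arrays of these genes lay within a narrow range of each other. Mrpl58, a peptidyl-tRNA hydrolase that frees stalled ribosomes, had 4895, 4960 and 4298 in Nrdp1-/- cells, and 5265, 4717 and 5029 in wild-type cells, with changes of -0.07 ± 0.11 and -0.13 ± 0.11 (adjusted p = 0.735 and 0.449). Mrpl44, whose fold resembles that of RNase III, was at 0.08 ± 0.11 and 0.06 ± 0.11 (adjusted p = 0.725 and 0.766). The 42 members that passed at neither time ranged from -0.18 to 0.45 at 4 h and from -0.13 to 0.50 at 8 h. Those that rose at 8 h ranged from 0.34 to 1.44, so the ranges meet, and Mrps27, a pentatricopeptide repeat protein, missed the threshold at 0.50 ± 0.19 (adjusted p = 0.0979).

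Members with a bacterial counterpart and mitochondria-specific ones were set side by side, leaving out Mrps36 and Mrpl55. There were 44 members with a counterpart under the current naming of ribosomal proteins. Of these 11 (25%) rose at 4 h and 23 (52.3%) at 8 h, with medians of 0.27 and 0.38. Of 30 without one, 7 (23.3%) and 11 (36.7%) rose, with medians of 0.16 and 0.33. Mrps18a and Mrps18b were among these 30, since current naming gives the bacterial counterpart to Mrps18c alone. The shares over all genes tested were 8.01% and 9.88%. The difference between members with and without a counterpart was not tested.

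Several probe sets of one gene give a check within the same arrays. Of the members 42 had more than 1 probe set, and 30 had another one above the median of all 6 arrays. Among the 34 members that rose at 8 h 15 had such a second measurement. In 11 of these all such probe sets were positive, while Mrpl13, Mrpl21, Mrps10 and Mrps25 each had a negative one. At 4 h this held for 4 of 5, with Mrpl13 as the exception. Any value above 0 counted as positive, including a probe set of Mrpl15 at 0.002 at 8 h and one of Mrps14 at 0.001 at 4 h. For 8 members the probe set used was of a kind that can also match related transcripts.

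**Figure D3:**
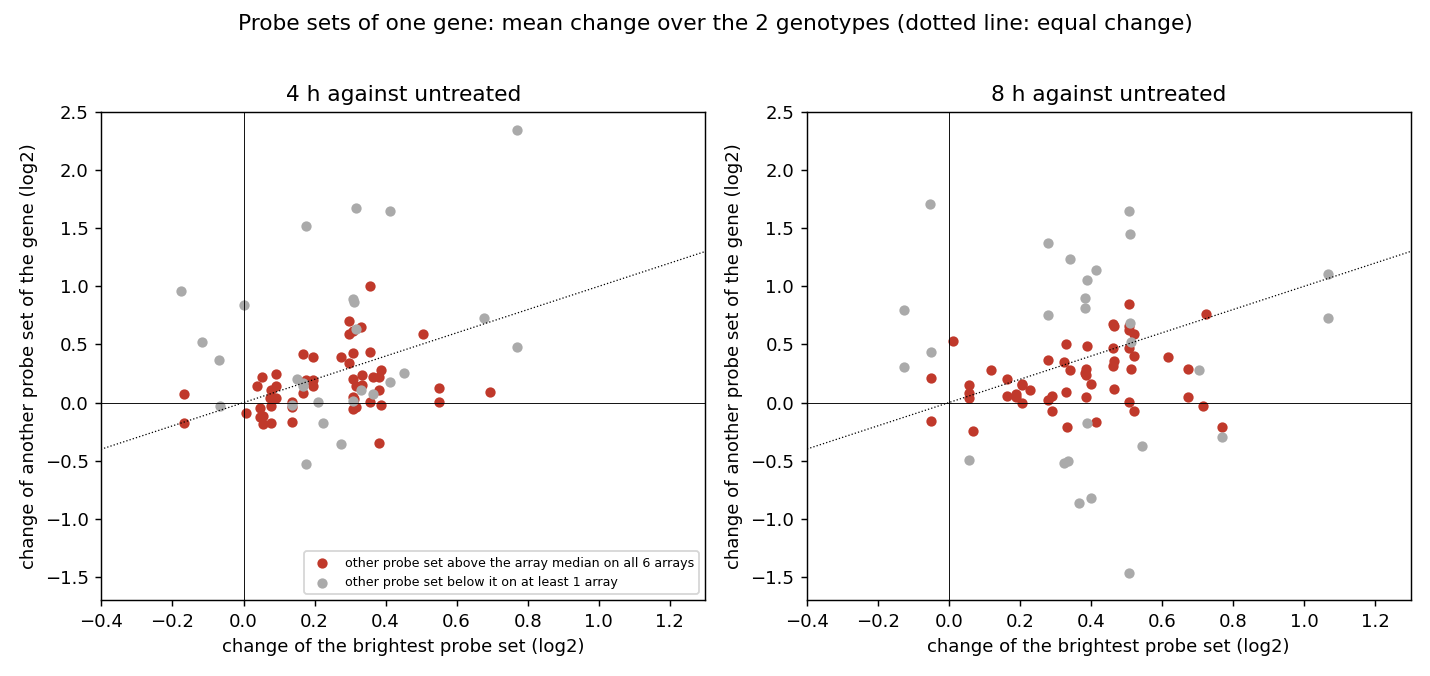
Change of a further probe set of a member (log2, vertical axis) against that of the brightest one (log2, horizontal axis), each a mean over both genotypes, at 4 h on the left and 8 h on the right. Red points are further probe sets above the array median on all 6 arrays, grey points the dimmer ones, which scatter more widely about the dotted line of equal change.

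The step from 4 h to 8 h was not resolved for any member. By limma 0 members passed, 4 of them having an unadjusted p below 0.05, all positive (Mrps25, Mrps22, Mrpl36 and Mrpl17), and 0 passed without the intensity trend. These 4 were 5.26% of the members, below the 8.37% of all genes tested that had such a p. Fitted on the 4 stimulated arrays alone, 1 member, Mrps25, passed. Over all genes 0.0185% rose and 0.0277% fell in this comparison. The median over the members was 0.10, against -0.01 over all genes tested, and 58 of 76 were positive. Without the 8 h Nrdp1-/- array that median was 0.050, and after centring arrays on their medians 0.043. The 16 members that passed at 8 h alone had 4 h changes of 0.14 to 0.39, so passing at one time and not at the other does not show a difference between the times. Myeloid markers moved over the same interval: the summed signal of 9 was 11431, 7569 and 2640 in Nrdp1-/- cells, and 1482, 1633 and 1606 in wild-type cells. At 8 h 3 of the 8 tested had fallen, 3 to 8 of the 9 reached the array median on any one array, and their part in the members' change was not tested. In wild-type cells too, single myeloid markers moved: their median change was 0.27 at 4 h and -0.33 at 8 h, with 3 of 8 positive at 8 h.

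No member passed between Nrdp1-/- and wild-type cells over the 3 times (limma), where 2.47% of all genes were higher and 2.57% lower. There were 5 members at an unadjusted p under 0.05, all of them higher in Nrdp1-/- cells, and 0 passed without the intensity trend. These 5 were 6.58% of the members, below the 16.5% of all genes tested that had such a p. They were Mrpl52 (0.28 ± 0.09, adjusted p = 0.113), Mrpl47 (0.27 ± 0.09, adjusted p = 0.142), Mrpl17 (0.30 ± 0.10, adjusted p = 0.156), Mrpl57 (0.27 ± 0.09, adjusted p = 0.157) and Mrps18b (0.24 ± 0.09, adjusted p = 0.201). Without either 4 h array 3 members passed, Mrpl17, Mrpl52 and Mrpl57. The mitochondria-specific Mrpl52 had signals of 2949, 3191 and 3988 in Nrdp1-/- cells, against 2395, 2907 and 3024 in wild-type cells. Mrpl57, also mitochondria-specific, had 3043, 3108 and 4035 in Nrdp1-/- cells, against 2465, 2978 and 2960 in wild-type cells. Both were higher in Nrdp1-/- cells at each time, and least so at 4 h.

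Over the family the median difference, Nrdp1-/- minus wild type, stood at -0.02 without stimulation, 0.07 at 4 h and 0.09 at 8 h, with 34, 52 and 53 of 76 members positive. Over all genes tested it was -0.02, 0.01 and -0.03, with 47.4%, 51.3% and 46% positive. For nuclear genes of the respiratory chain and ATP synthase it was -0.02, 0.06 and 0.05. Genes of mitochondrial import and folding had -0.003, -0.02 and 0.16, and cytosolic ribosomal protein genes 0.04, 0.12 and -0.13. These are differences of single arrays and carry no test. The median change with stimulation was 0.25 at 4 h and 0.37 at 8 h in Nrdp1-/- cells, against 0.19 and 0.28 in wild-type cells. An interaction term tested whether the genotype difference changed between untreated and stimulated arrays. No member passed, with 0.221% of all genes passing. An unadjusted p under 0.05 was found for 1 member, Mrpl9 (1.32% of the members, against 3.75% of all genes). With the spread of the additive model 0 members reached that level, but that spread contains the interaction itself, so a large interaction widens it. A difference of at least 0.5 between genotypes was seen for Mrpl9 at 4 h (-0.59) and for Mrpl17 at 8 h (0.53). B cell markers were lower in Nrdp1-/- cells over the same arrays, with 8 of 9 tested called and summed signals of 2733 to 3059 in Nrdp1-/- cells, against 13563 to 15463 in wild-type cells. Of these 10 markers 7 to 10 reached the median on any one array. Myeloid markers were higher in 4 of 8. Their part in the members' values was not tested.

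**Figure D4:**
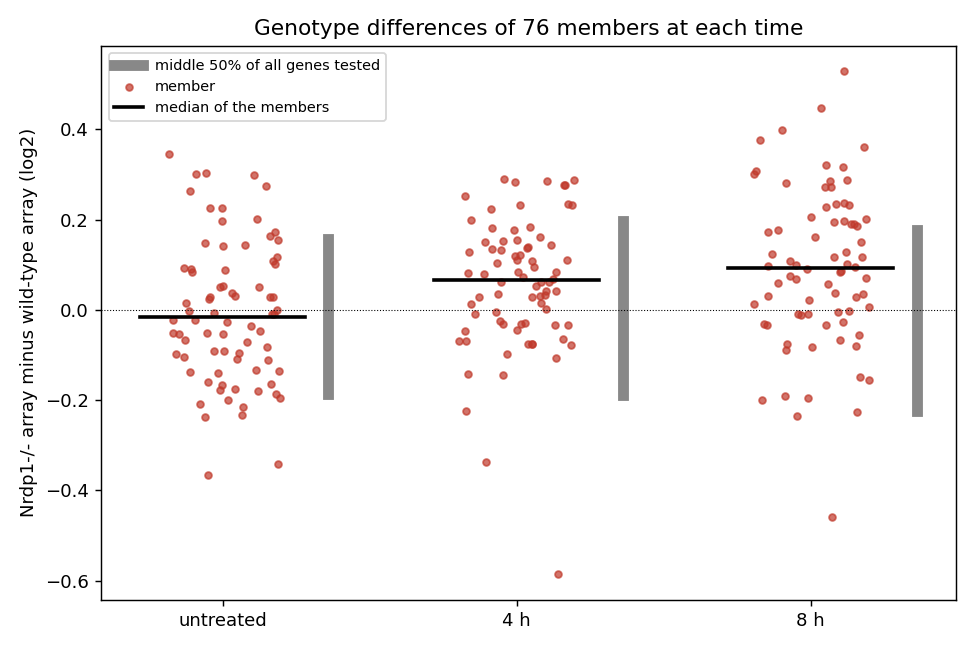
Difference between the Nrdp1-/- array and the wild-type array at each time (log2, vertical axis) for the 76 members in red, with their median as a black line and the middle 50% of all genes tested as a grey bar. The medians are -0.02, 0.07 and 0.09, and the grey bar shows how widely single genes spread, which is no yardstick for a median.

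Other genes of mitochondrial translation were read from lists beside the members. Of 4 mitoribosomal proteins with other names, Chchd1 rose at 4 h and 8 h (0.38 ± 0.10 and 0.49 ± 0.10, adjusted p = 0.0332 and 0.0083), and Gadd45gip1 rose at 8 h (0.47 ± 0.12, adjusted p = 0.0184). Ptcd3 (0.42 ± 0.14, adjusted p = 0.0582) and Dap3 (0.09 ± 0.12, adjusted p = 0.683) did not pass at 8 h. Of 13 translation factors 3 (23.1%) rose at 4 h and 4 (30.8%) at 8 h, and 0 fell, with medians of 0.17 and 0.15. They were the elongation factor genes Tsfm (0.58 ± 0.14 and 0.68 ± 0.14) and, at 8 h, Gfm1 (0.57 ± 0.13), and Lrpprc (0.64 ± 0.11 and 0.45 ± 0.11) and Slirp (0.39 ± 0.11 and 0.66 ± 0.11), whose products stabilise mitochondrial messenger RNA. Of 24 genes of ribosome assembly and ribosomal RNA modification 3 (12.5%) rose at both times, near the 8.01% and 9.88% of all genes, with list medians of 0.08 and 0.06. They were the methyltransferase gene Mrm3 (0.86 ± 0.16 and 0.84 ± 0.16), Fastkd2 (0.68 ± 0.15 and 0.72 ± 0.15) and the GTPase gene Noa1 (0.65 ± 0.13 and 0.59 ± 0.13). Between genotypes Rbfa, a maturation factor of the small subunit, was the 1 called gene of that list, lower in Nrdp1-/- cells (-0.43 ± 0.09, adjusted p = 0.0154). Of 15 mitochondrial tRNA synthetases 0 rose at 4 h by limma, 2 having an unadjusted p below 0.05, and 1 (6.67%, against 9.88% of all genes), Yars2, rose at 8 h (0.62 ± 0.18, adjusted p = 0.0350).

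The members were also set beside the cytosolic ribosome and the respiratory chain. Over all genes tested 8.01% rose and 5.51% fell at 4 h, and 9.88% rose and 9.26% fell at 8 h. Of 48 cytosolic ribosomal protein genes 3 (6.25%) rose at 4 h, with a median of 0.05. At 8 h 4 of the 48 (8.33%) rose and 1 (2.08%) fell, with a median of -0.02. These genes were far brighter, with a median log2 level per array of 15.0 to 15.2, against 10.4 to 10.8 for the members. Whether brightness bears on the changes was not tested. Of 77 nuclear genes of the respiratory chain and ATP synthase 4 (5.19%) rose at 4 h, with a median of 0.15. At 8 h 20 of the 77 (26.0%) rose and 1 (1.3%) fell, with a median of 0.20. Their leading genes were Uqcrq (0.93 ± 0.11 and 1.20 ± 0.11) of complex III and Atp5g1 (0.67 ± 0.12 and 0.98 ± 0.12) of the ATP synthase. Of 26 genes of protein import and folding 12 (46.2%) rose at 4 h and 15 (57.7%) at 8 h, with medians of 0.34 and 0.45. The share risen at 8 h was 44.7% of the members, against 57.7% of the import genes, 26.0% of the respiratory chain genes and 8.33% of the cytosolic ribosomal protein genes, and the differences between lists were not tested.

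**Figure D5:**
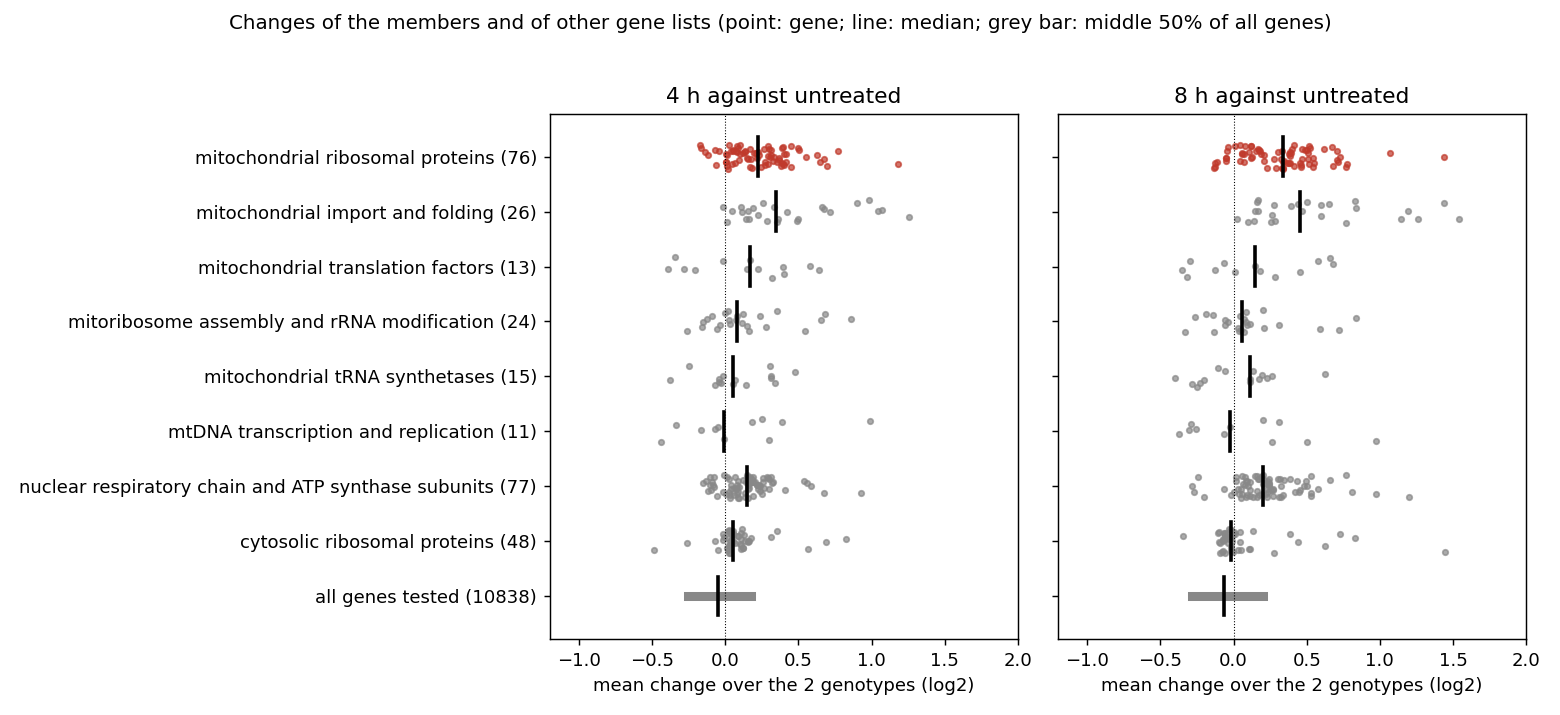
Change at 4 h (left) and 8 h (right) for each gene of the members (red) and of 7 other lists (grey), as the mean over both genotypes (log2, horizontal axis), with the number of genes in parentheses and the median as a black line. Medians of the members, 0.22 and 0.34, lie below those of import and folding, 0.34 and 0.45, and above those of the cytosolic ribosomal proteins, 0.05 and -0.02.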

How the data were processed

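The authors deposited a table of linear signal intensity per probe set for 6 Affymetrix mouse arrays, and MAS5 is the tool listed, per the submitters' processing notes. The values show that each array was scaled to a mean of 500 after trimming 2% at either end, so a shift of most transcripts would be hidden. Detection calls were not used here. After removal of 64 control probe sets from 45101, 34945 were annotated with a single gene symbol and used, while 932 with several symbols and 9160 absent from the annotation were not. Values were taken as log2(signal + 4.45), the 10th percentile of all values, which understates changes of dim genes. The brightest probe set per gene was kept if it reached the array median on at least 2 arrays. Array medians were 61.5 to 68.6, and the number of arrays limits the precision.

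Tests used limma 3.58.1 in R 4.3.3 (lmFit, eBayes with an intensity trend, Benjamini-Hochberg over 10838 genes, threshold 0.05), with time and genotype as additive terms, 2 residual and 8.99 prior degrees of freedom. An interaction term had 1 residual degree of freedom. Differences of single arrays carry no test. Named were the 8 members with the largest rise among those that passed, the 4 with the lowest p between genotypes and between 4 h and 8 h, the 4 brightest and leading genes of each list. Others, such as the S18 paralogs, the stalk proteins, Mrpl44, Mrpl45 and Mrps27, were named after their values were seen. The members and lists were chosen with earlier results of these data known. Promoter sequences are from RefSeq. Alternatives were quantile normalization, median centring, pseudocounts of 1 and 24.3, no filter, a filter at the 70th percentile, averaged probe sets, no intensity trend, a minimum change of 2-fold, a fit to the stimulated arrays, and omission of each array in turn.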

Additional observations from a re-analysis of the deposited data

How the results depend on the processing

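No pairing by animal was possible because the labels give no replicate numbers and each group has 1 array. Genotype entered the time comparisons as a term, and time entered the genotype comparison. Risen members numbered 18 at 4 h and 34 at 8 h. These counts were 10 and 21 after centring each array on its median, 8 and 15 with a gene's probe sets averaged, 0 and 1 without the intensity trend, and 1 and 2 with a 2-fold minimum, where fewer calls follow from the rule. Leaving out each array in turn gave 5 to 21 at 4 h and 13 to 39 at 8 h, where one array less leaves 1 residual degree of freedom and a time with a lone array is assumed to vary like the others. It gave 0 to 1 fallen members at 4 h (Mrpl9, without the 4 h wild-type array) and 0 to 3 members higher in Nrdp1-/- cells. Both pseudocounts, quantile normalization, no filter and the stricter filter kept both counts within 1.5 times. The median change from 4 h to 8 h was 0.043 after centring, 0.065 with averaged probe sets, and 0.050 to 0.14 with an array left out. The medians at 4 h and 8 h stayed positive under each alternative run. The median of the assembly list from 4 h to 8 h, -0.04, was 0.040 without the 4 h wild-type array and ranged from -0.12 to 0.040 with an array left out. Calls of the named members kept their direction in all 308 values recomputed and were lost in 63, of which 21 were without the intensity trend. Except where stated, the cause was not tested. The interaction test gave 0 members with the spread of its own model. With the spread of the additive model 0 members passed too, but so did 0 of all genes tested. That spread contains the interaction itself, so the second count adds no support.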

Other observations

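Of 12 tested regulators of mitochondrial biogenesis 3 (25%) rose at both times, against 8.01% of all genes at 4 h and 9.88% at 8 h, and 0 fell. Myc, a factor that drives growth genes, rose by 2.14 ± 0.11 at 4 h and 2.36 ± 0.11 at 8 h. Pprc1, a coactivator of the PGC-1 family, rose by 1.15 ± 0.13 and 1.09 ± 0.13, and Gabpb1, the partner subunit of the ETS factor GABPA, by 0.59 ± 0.17 and 0.73 ± 0.17. Nrf1 itself was at -0.20 ± 0.16 and -0.19 ± 0.16 (adjusted p = 0.459 and 0.430), and Gabpa at -0.19 ± 0.12 and -0.15 ± 0.12 (adjusted p = 0.366 and 0.440). Of 11 genes of mitochondrial DNA transcription and replication 1 (9.09%) rose at both times, a share like that of all genes tested. It was the topoisomerase gene Top1mt (0.99 ± 0.19 and 0.98 ± 0.19, adjusted p = 0.00527 and 0.00473). Tfam, which packages mitochondrial DNA, was at 0.18 ± 0.12 and 0.31 ± 0.12 (adjusted p = 0.337 and 0.0868), and the polymerase gene Polrmt at -0.05 ± 0.12 and -0.26 ± 0.12 (adjusted p = 0.851 and 0.178).

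The leading genes among the 26 of import and folding rose at both times. Timm8a1, for a chaperone of the intermembrane space, rose by 1.25 ± 0.14 and 1.54 ± 0.14, the chaperonin gene Hspd1 by 1.07 ± 0.10 and 1.44 ± 0.10, the import motor gene Hspa9 by 1.05 ± 0.13 and 1.26 ± 0.13, and Tomm40, the outer-membrane pore, by 0.90 ± 0.14 and 1.20 ± 0.14.

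Mrpl9 had signals of 3046, 2017 and 2836 in Nrdp1-/- cells at 0, 4 and 8 h, and 2535, 3031 and 2536 in wild-type cells. Its 2 genotypes moved in opposite directions at 4 h, and a second probe set, above the array median on all 6 arrays, gave a 4 h difference between genotypes of 0.04 in place of -0.59. The remaining one, also above the median throughout, gave -0.10.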
